A study of Mus musculus with 2 samples.

Results

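The Ifitm family comprises small membrane proteins induced by interferon, and 4 of its genes are described here: Ifitm1, Ifitm2, Ifitm3 and Ifitm6. They were taken by gene symbol from the 32285 genes of the deposited matrices. The family was chosen by measured values of these libraries, namely the UMI levels of Ifitm1 in mesenchymal cells, which were low in the knockout, so the levels given here are a description and carry no test. Non-parenchymal liver cells came from Mfap2+/+ (wild-type) and Mfap2-/- (knockout) mice, and both genotypes had been injected intraperitoneally with carbon tetrachloride (CCl4), a hepatotoxin that causes fibrosis, for 8 weeks. Mfap2 encodes a glycoprotein of extracellular microfibrils. There was 1 droplet single-cell library per genotype, the labels state neither the age nor the number of the mice, and no uninjured liver was analysed here. Genotype, animal and library preparation therefore cannot be told apart, and every interval below is a 95% interval that covers counting error only.

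IFITM proteins sit in plasma and endosomal membranes, where they hinder the fusion of enveloped viruses with the cell. Their genes are classical targets of type I and type II interferon, which act through receptor-bound kinases and transcription factors on short promoter elements. Ifitm1 and Ifitm3 have also been used as markers of early germ cells, Ifitm2 is a close paralog of Ifitm3, and Ifitm6 is known mainly from myeloid cells.

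On mouse build GRCm38 all 4 genes lay in 63.1 kb of chromosome 7, from 140954837 to 141017924. Ifitm2 (ENSMUSG00000060591) spanned 140954837 to 140955987 on the reverse strand and Ifitm1 (ENSMUSG00000025491) 140967221 to 140969825 on the forward strand. Ifitm3 (ENSMUSG00000025492) followed at 141009586 to 141010770 and Ifitm6 (ENSMUSG00000059108) at 141015699 to 141017924, both on the reverse strand. In GENCODE M21, Ifitm2 overlapped Gm45717, a gene model on the same strand. Of the 50-base stretches in the last 500 bases of its transcripts, Ifitm2 shared 41.9% with transcripts of other genes, among them Ifitm3 and Gm45717. The share was 14.0% for Ifitm3, 11.8% for Ifitm1 and 0% for Ifitm6. Counts of Ifitm2 in particular are therefore uncertain, since how reads that match several genes were handled is not given in the sources used here.

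The promoters of the 4 genes are shown because the family is known for its answer to interferon. Each holds 250 bases before and 50 after the transcription start that RefSeq gives (GRCm38.p6), on the gene's own strand, with matches to the interferon-stimulated response element, searched as GAAANNGAAA on both strands, in capitals. The positions are chr7:140967826-140968125 (Ifitm1, forward), chr7:140955912-140956211 (Ifitm2, reverse), chr7:141010695-141010994 (Ifitm3, reverse) and chr7:141016843-141017142 (Ifitm6, reverse). For all 4 genes the RefSeq start lies inside the GENCODE gene, further in for Ifitm1 and Ifitm6 than for Ifitm2 and Ifitm3.
Ifitm1: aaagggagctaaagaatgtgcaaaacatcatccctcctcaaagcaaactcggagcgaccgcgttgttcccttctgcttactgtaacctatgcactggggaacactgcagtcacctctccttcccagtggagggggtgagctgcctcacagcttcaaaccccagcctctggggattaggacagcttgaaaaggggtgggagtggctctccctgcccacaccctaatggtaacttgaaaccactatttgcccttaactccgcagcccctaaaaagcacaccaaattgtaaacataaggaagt
Ifitm2: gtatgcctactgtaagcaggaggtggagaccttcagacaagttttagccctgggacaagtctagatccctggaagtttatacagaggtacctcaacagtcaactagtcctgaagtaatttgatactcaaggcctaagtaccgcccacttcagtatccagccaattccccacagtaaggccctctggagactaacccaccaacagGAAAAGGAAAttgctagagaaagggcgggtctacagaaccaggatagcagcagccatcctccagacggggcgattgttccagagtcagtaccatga
Ifitm3: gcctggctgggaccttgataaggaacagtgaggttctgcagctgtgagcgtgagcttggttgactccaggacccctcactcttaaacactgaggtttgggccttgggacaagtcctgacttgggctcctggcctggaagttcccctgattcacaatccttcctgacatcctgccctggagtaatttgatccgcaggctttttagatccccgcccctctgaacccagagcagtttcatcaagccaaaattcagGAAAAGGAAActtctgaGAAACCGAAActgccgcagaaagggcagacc
Ifitm6: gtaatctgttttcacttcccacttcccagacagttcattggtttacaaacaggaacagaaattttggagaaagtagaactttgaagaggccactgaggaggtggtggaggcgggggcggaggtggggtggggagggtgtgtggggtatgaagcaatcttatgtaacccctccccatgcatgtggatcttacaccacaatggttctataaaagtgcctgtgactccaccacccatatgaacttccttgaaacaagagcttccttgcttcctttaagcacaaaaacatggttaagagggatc
The response element occurred once in Ifitm2, from position -46, and 2 times in Ifitm3, from positions 3 and 20, counting the start as 1. It was not among the letters of the Ifitm1 and Ifitm6 windows, and 3.44% of 32851 RefSeq promoters of this length held it. The gamma-activated site, searched as TTCNNNGAA, which reads alike on both strands, matched in Ifitm3 from position 14 and in Ifitm6 from position -10. Of all promoters, 8.30% held it. TATAAA matched from position -46 in Ifitm6 and, on the other strand, from position -175 in Ifitm2, and was held by 13.6% of all promoters. The longest stretch that any 2 of the windows shared was 13 bases, between Ifitm2 and Ifitm3, and it covers the element of Ifitm2 and the first element of Ifitm3. A match is a description of these letters and not evidence of binding.

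The wild-type library held 11783 barcodes with 82499307 UMIs (unique molecular identifiers, each marking 1 RNA molecule) and the knockout library 12872 barcodes with 118226367. After filtering, 10336 and 11428 cells were kept, and the libraries shared 40 cell barcodes. Mfap2 matched the labels, with 211 UMIs over all wild-type cells kept and 2 over all knockout cells. Clusters were named from marker genes, with the Ifitm genes left out of the clustering. Of the named classes, 16 had at least 50 cells in each library and are compared here.

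Each gene had its own distribution over the classes. Ifitm1 was high in only a few of them. Levels are UMIs of the gene per 1000000 UMIs of the class, given as counts per 1000000 (CPM). In the wild-type library it stood at 1181 CPM (95% interval 1143 to 1219) in neutrophil-like cells and 1095 (1058 to 1134) in mesenchymal-like cells. Type 2 dendritic-like cells came next at 269.9 and cycling-like cells at 53.6, and the other 12 classes lay between 18.0 and 36.4, each with an interval that met that of the next class in order. B-like cells, in which no Ifitm1 expression is presumed here, stood at 22.7, within that range. The level of free RNA was not measured, and its part in these low levels was not tested. Classical monocyte-like cells, at 36.4 (30.6 to 43.1), lay above the interval of B-like cells (18.5 to 27.6). In the knockout library the order began with neutrophil-like cells at 1034 and mesenchymal-like cells at 404, and the other 14 classes lay between 9.37 and 54.4. Neutrophil-like and mesenchymal-like cells together thus carried most Ifitm1 molecules: 40.5% and 35.5% of the 9104 wild-type UMIs, 49.4% and 20.1% of the 6620 knockout UMIs. Mesenchymal-like cells were 2.34% and 2.37% of the cells.

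Ifitm2 and Ifitm3 were found in every class, with a like order. Ifitm2 was highest in wild-type sinusoidal endothelial-like cells, at 1962 CPM, followed by neutrophil-like cells at 1655 and mesenchymal-like cells at 1078. Ifitm3 was highest in classical monocyte-like cells, at 3033, followed by mesenchymal-like cells at 2642 and sinusoidal endothelial-like cells at 2282. Both were lowest in NK or innate lymphoid-like cells, at 124 and 219. B-like, T-like and NK or innate lymphoid-like cells had the 3 lowest Ifitm3 levels in each library. In the knockout library Ifitm2 was highest in neutrophil-like cells, at 1387, ahead of sinusoidal endothelial-like cells at 1234. Ifitm3 again led in classical monocyte-like cells, at 2916, and its next 3 classes, mesenchymal-like, hepatocyte-like and Kupffer-like, lay within 1632 to 1714.

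Ifitm6 was a myeloid gene in these libraries. Neutrophil-like cells had 868 wild-type and 608 knockout CPM, classical monocyte-like cells 278 and 230, and patrolling monocyte-like cells 94.8 and 97.4. Type 2 dendritic-like cells had 81.1 and 64.9. In mesenchymal-like cells it stood at 11.2 and 12.8, from 33 and 42 UMIs, beside 7.88 and 9.67 in B-like cells. Its mesenchymal level thus lay close to that of B-like cells, and the part of free RNA in it was not tested.

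**Figure D1:**
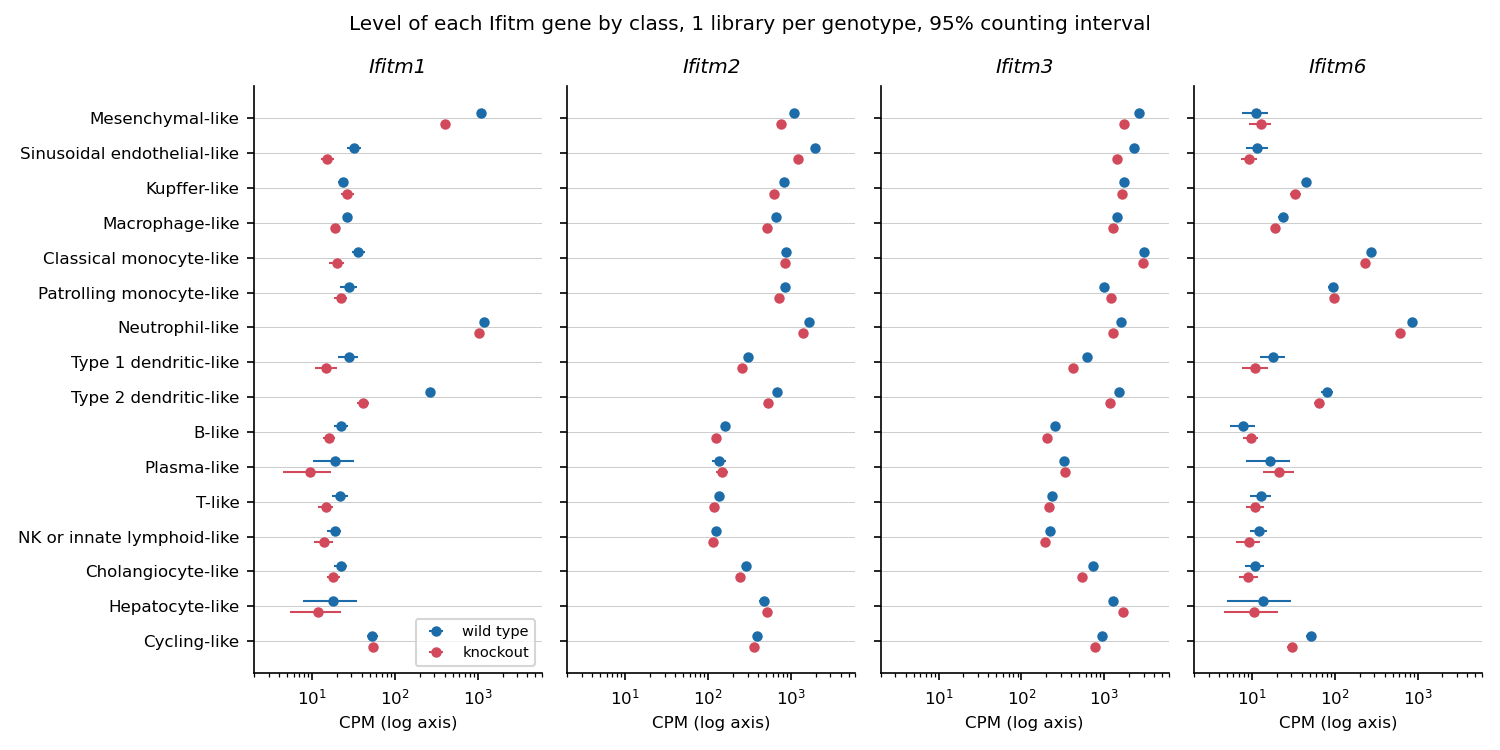
Level of each Ifitm gene in CPM (log axis) for the 16 classes, with wild type in blue, knockout in red and bars for the 95% counting interval. Ifitm1 stands out in neutrophil-like and mesenchymal-like cells, Ifitm6 in neutrophil-like and monocyte-like cells, and Ifitm2 and Ifitm3 are spread over all classes.

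The neutrophil-like class held 2 clusters, and Ifitm1 and Ifitm6 divided between them. The cluster led by Cxcr2, the chemokine receptor of circulating neutrophils, and Il1r2, a decoy receptor for interleukin 1, had 881 wild-type and 745 knockout cells. Ifitm1 stood there at 1820 wild-type and 1548 knockout CPM, and Ifitm6 at 151 and 98.4. The other cluster was led by the granule genes Ltf, Ngp and Mmp8, which neutrophils make while they mature, and had 283 and 216 cells. Ifitm1 stood there at 231 and 184, and Ifitm6 at 1933 and 1451. In both libraries Ifitm1 was thus higher in the first cluster than in the second and Ifitm6 lower, with no overlap of the counting intervals. Ifitm3 followed Ifitm6 in direction, at 1300 and 1052 in the Cxcr2-led cluster and 2045 and 1695 in the granule gene cluster. Ifitm2 followed Ifitm1, at 2231 and 1806 against 801 and 696.

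Over the 16 classes the members did not share 1 pattern. On the log2(CPM + 10) scale, Ifitm2 and Ifitm3 had a Pearson correlation of 0.92 in each library. The other 5 pairs lay between 0.46 and 0.54 (wild type) and between 0.35 and 0.59 (knockout). These are descriptions over 16 classes that share a library, a depth profile and any free RNA. Among 7065 genes, the pattern of Ifitm1 was most like those of Dach1, a transcription cofactor, Crispld2, a secreted protein, and Tnfaip6, which binds hyaluronan, with correlations of 0.88, 0.88 and 0.83 for wild-type and 0.96, 0.86 and 0.87 for knockout classes. Dach1 was among the leading genes of the granule gene cluster, where Ifitm1 was lower than in the Cxcr2-led cluster. Likeness over classes was not followed into clusters. Ifitm2 and Ifitm3 were each nearest to the other and next to Lamp2, a lysosomal membrane protein, and Tgm2, a transglutaminase (0.84 to 0.92 in both libraries). Ifitm6 was nearest to Mcemp1, a membrane protein of mast cells and myeloid cells, and to the transporters Slc16a3 and Slc2a6 (0.95 to 0.97).

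In mesenchymal-like cells, the class of stellate cells, fibroblasts and smooth muscle cells, 3 of the 4 genes were lower in the knockout library, Ifitm1 by most. The class had 242 wild-type and 271 knockout cells with median depths of 11874.5 and 11615 UMIs, which are close. It held 22 wild-type and 39 knockout cells under 1000 UMIs, so shallow cells were unequal in number. Its 10 mesenchymal markers, none at 0, summed to 18715 and 14071 CPM. The wild-type level of Ifitm1 was 1095 CPM (1058 to 1134, 3234 UMIs) and the knockout level 404 (383 to 427, 1331 UMIs), which gives a log2 ratio of -1.44 (-1.53 to -1.35). Ifitm3 stood at 2642 (2584 to 2701) and 1714 (1669 to 1759), or -0.62 as log2 ratio (-0.67 to -0.57). Ifitm2 stood at 1078 (1041 to 1117) and 751 (722 to 781), or -0.52 as log2 ratio (-0.60 to -0.45). The wild-type and knockout counting intervals did not overlap for these 3 genes. The log2 ratio of Ifitm6 was 0.18 with an interval from -0.50 to 0.89. Of 12362 genes with at least 20 UMIs in the class, 2.11% were at least 2-fold lower in the knockout library and 5.68% at least 2-fold higher, with a median log2 ratio of 0.14. Among the 4 members only Ifitm1 was at least 2-fold lower, and its choice rests on that value.

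Fewer mesenchymal-like cells held Ifitm1 in the knockout library, and those that did held fewer molecules. With every cell thinned to 1000 UMIs, an Ifitm1 UMI was seen in 55.5% of the wild-type (Clopper-Pearson interval 48.6% to 62.1%) and 35.3% of the knockout mesenchymal-like cells (29.2% to 41.9%). Thinning dropped 22 and 39 shallower cells, and without it the shares were 85.5% and 67.5%. At least 3 Ifitm1 UMIs were left in 42 of 220 thinned wild-type cells (19.1%), against 9 of 232 in the knockout library (3.88%). The thinned shares among B-like cells, whose median depths were 3377.5 and 4764 UMIs, were 2.66% and 1.82%. Ifitm2 was found in 63.6% and 50.4% of thinned mesenchymal-like cells (95.5% and 85.2% without thinning). The largest cluster alone had Ifitm2 in 193 of 196 wild-type and 197 of 199 knockout cells without thinning, and in 125 and 106 after it. For Ifitm3, found in most cells, the shares were 82.7% and 80.2% at 1000 UMIs, 95.2% and 89.6% at 2000 UMIs and 97.9% and 94.1% without thinning, while the cells with at least 3 UMIs made up 48.6% and 25.9% at 1000 UMIs. B-like cells had Ifitm2 in 14.6% and 11.7% and Ifitm3 in 22.5% and 18.9% after thinning.

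**Figure D2:**
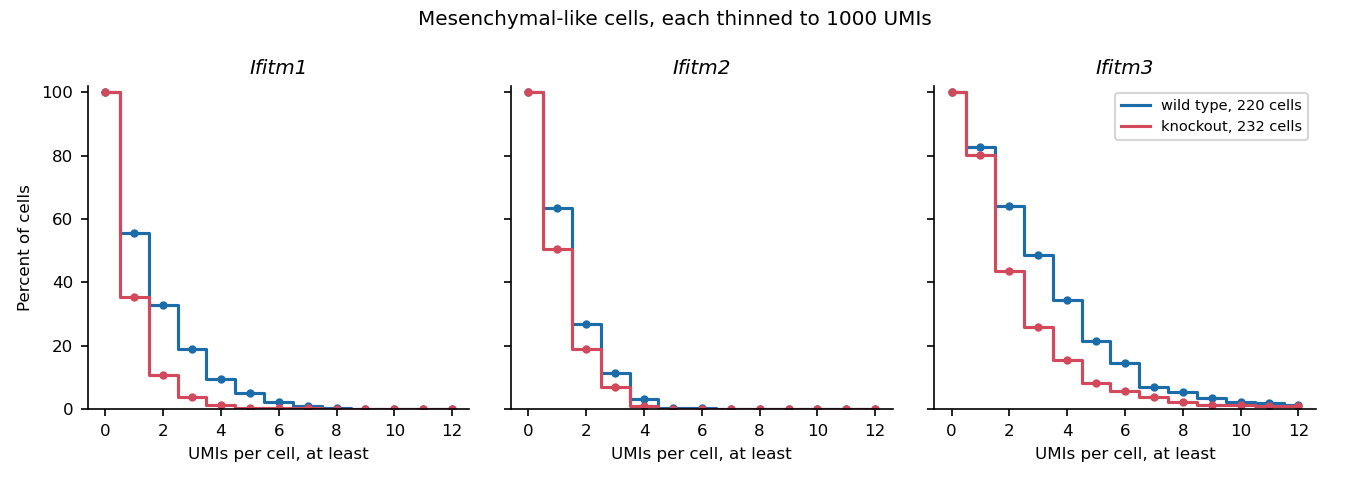
Percent of mesenchymal-like cells with at least the given number of UMIs of Ifitm1, Ifitm2 or Ifitm3 after thinning each cell to 1000 UMIs, with wild type in blue (220 cells) and knockout in red (232 cells). The knockout curve lies below the wild-type curve for Ifitm1 from 1 UMI on (35.3% against 55.5%), whereas for Ifitm3 the curves are close at 1 UMI (80.2% against 82.7%) and part above it.

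The difference was present in both larger mesenchymal-like clusters. The largest, with 196 wild-type and 199 knockout cells, had Ifitm1 at 1109 and 407 CPM, a log2 ratio of -1.44 on its own. A cluster of 38 and 65 cells with a median of 875 UMIs per cell and led by Tagln, Colec11 and Dcn had 2058 (1699 to 2471) and 436 (302 to 610). The third, led by the smooth muscle genes Cnn1, Myocd and Myh11, had 8 and 7 cells with 9 and 11 Ifitm1 UMIs, 98.5 and 191 CPM with overlapping intervals. Leaving out the 5 cells richest in a gene from each library gave -1.47 for Ifitm1, -0.56 for Ifitm2 and -0.69 for Ifitm3.

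Genes of the mesenchymal subtypes differed between the libraries too, and their part in the Ifitm1 result was not tested. Of all genes in the class 2.11% were at least 2-fold lower, with a median of 0.14. Of 7 stellate cell genes the median log2 ratio was -0.20, with 2 at least 2-fold lower: Rgs5, a regulator of G protein signalling in pericytes, at -2.11, and Ecm1, an extracellular matrix protein, at -1.04. Hgf, a growth factor for hepatocytes, stood at 0.75 and Nes, an intermediate filament gene, at 0.35 (-0.25 to 0.99, 39 and 56 UMIs). Of 8 fibroblast genes (median -0.72) 4 were at least 2-fold lower, among them Mfap5 (-4.11, 92 and 5 UMIs) and Clec3b (-3.06, 29 and 3 UMIs), while Dpt stood at 0.93 and Cd34 at 0.49. Of 6 smooth muscle genes (median -0.78) 2 were, Cnn1 (-3.93) and Actg2 (-3.92), beside Des at -0.07 and Myh11 at -0.17. In the wild-type library, thinned cells with an Ifitm1 UMI held on average 6.52 UMIs of the stellate list against 3.89 in cells without one. For the fibroblast list the means were 0.393 against 1.49 and for the smooth muscle list 0.869 against 2.15. In the knockout library the stellate means were 4.87 and 3.75, the fibroblast means 0.890 and 0.880 and the smooth muscle means 1.16 and 1.09. The listed interferon-stimulated genes had means of 5.23 against 3.06 in wild-type and 5.27 against 3.65 in knockout cells. Cells with Ifitm1 thus held more UMIs of the stellate and interferon lists in both libraries, and fewer of the fibroblast and smooth muscle lists in the wild-type library alone. The 8 neutrophil markers, all detected, summed to 1264 CPM in wild-type and 1391 in knockout mesenchymal-like cells, against 139227 and 110750 in neutrophil-like cells. Hepatocyte markers summed to 123 and 317 CPM and erythroid markers to 368 and 108.

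Within mesenchymal-like cells thinned to 1000 UMIs, the members were weakly related cell by cell. Over 220 wild-type cells thinned to 1000 UMIs, Ifitm1 and Ifitm3 had a Pearson correlation of 0.46, Ifitm2 and Ifitm3 of 0.22 and Ifitm1 and Ifitm2 of 0.20. Over 232 knockout cells the values were 0.27, 0.27 and 0.14. Ifitm1 and Ifitm3 were found together in 114 wild-type cells, where the product of their shares gives 101, and in 73 knockout cells, where it gives 65.7. All of Ifitm1, Ifitm2 and Ifitm3 were found in 83 of the 220 wild-type and 44 of the 232 knockout cells. Such counts are sparse, the cells of a library share its preparation, and correlations of this size are a description and no finding. In cells that were not thinned, with counts scaled to the depth of each cell, Ifitm1 and Ifitm3 reached 0.70 and 0.39. Ifitm2 and Ifitm3 reached 0.49 and 0.45, and Ifitm1 and Ifitm2 0.49 and 0.38. In the largest mesenchymal-like cluster alone the values were 0.75 and 0.33 for Ifitm1 and Ifitm3. They were 0.69 and 0.60 for Ifitm2 and Ifitm3, and 0.50 and 0.31 for Ifitm1 and Ifitm2. These values are a description too, and any remaining part of depth in them was not tested.

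In the endothelium the lower values concerned Ifitm2 and Ifitm3. Sinusoidal endothelial-like cells (582 wild-type and 949 knockout) had Ifitm2 at 1962 (1917 to 2008) and 1234 (1210 to 1258) CPM, or -0.67 as log2 ratio (-0.71 to -0.63). Ifitm3 stood at 2282 (2234 to 2332) and 1445 (1419 to 1471), or -0.66 as log2 ratio (-0.70 to -0.62). After thinning, 83.0% of wild-type and 64.9% of knockout cells had an Ifitm2 UMI, and 84.7% and 70.4% an Ifitm3 UMI, at median depths of 5560.5 and 7246 UMIs before thinning. Without thinning the shares were 98.6% and 96.3% for Ifitm2 and 99.1% and 98.6% for Ifitm3. Both genes were therefore lower per cell and in fewer cells at equal depth. Ifitm1 had 32.3 and 15.4 CPM, near the 22.7 and 16.2 of B-like cells, so its log2 ratio of -1.07 describes a low level. The part of free RNA in it was not tested. In this class 3.28% of 12673 genes were at least 2-fold lower. An endothelial cluster without a class name, led by Selp, Rspo3 and Wnt9b, had Ifitm2 at 1580 and 998 and Ifitm3 at 1867 and 1441.

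In neutrophil-like and monocyte-like cells Ifitm2 and Ifitm3 differed less, and not all in 1 direction. In neutrophil-like cells the log2 ratios were -0.19 (-0.26 to -0.12) for Ifitm1, -0.25 (-0.31 to -0.20) for Ifitm2, -0.31 (-0.37 to -0.25) for Ifitm3 and -0.51 (-0.60 to -0.43) for Ifitm6. With the libraries clustered separately Ifitm1 stood at 0.036, so its direction there depends on the clustering. In classical monocyte-like cells Ifitm3 stood at 3033 and 2916, a log2 ratio of -0.06, and Ifitm2 at 871 and 852. Patrolling monocyte-like cells had more Ifitm3 in the knockout library, 998 and 1209 (log2 ratio 0.28, 0.21 to 0.34, but -0.0090 with separate clustering), as did hepatocyte-like cells, 1291 and 1685 (0.38, 0.24 to 0.53, 51 and 81 cells). Kupffer-like cells had Ifitm2 at 823 and 622 and Ifitm3 at 1725 and 1632, a difference that changed sign under 5 alternatives. Over the 16 classes Ifitm1 was lower in the knockout library in 14, Ifitm2 in 14, Ifitm3 in 13 and Ifitm6 in 12. In these classes the median log2 ratio of genes whose longest transcript has 500 to 1000 bases lay between -0.47 and -0.06. For Ifitm1, 12 of the 16 classes lay in the low wild-type range of 18.0 to 36.4 CPM. Among these 12, B-like cells had 22.7 and 16.2 CPM. Classical monocyte-like cells, at the top of the range and above the interval of B-like cells, had a log2 ratio of -0.86 (-1.28 to -0.46). In the other 4 classes Ifitm1 was lower in 3, and cycling-like cells had 53.6 and 54.4. The classes come from the same pair of libraries, so these are not independent observations.

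The lowest log2 ratio of Ifitm1 was found in type 2 dendritic-like cells, at 269.9 and 41.7 CPM (-2.69, -2.97 to -2.43), where 2.83% of 10117 genes were at least 2-fold lower. In that class the 7 markers of basophils and mast cells summed to 116 wild-type and 5.68 knockout CPM. Cells with at least 2 of these markers numbered 9 and 1, and the 9 wild-type cells held 220 of its 466 Ifitm1 UMIs, at 5533 CPM. Without such cells of both libraries Ifitm1 stood at 146 and 38.2, a log2 ratio of -1.93 (-2.24 to -1.63), a value computed after the pattern was seen. Basophil and mast cell markers thus moved with this result, and their part in the difference that remains was not tested. Ifitm2 stood at -0.35 with and without these cells (0.053 with cells thinned before summing), and Ifitm3 at -0.36 with and -0.38 without them.

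**Figure D3:**
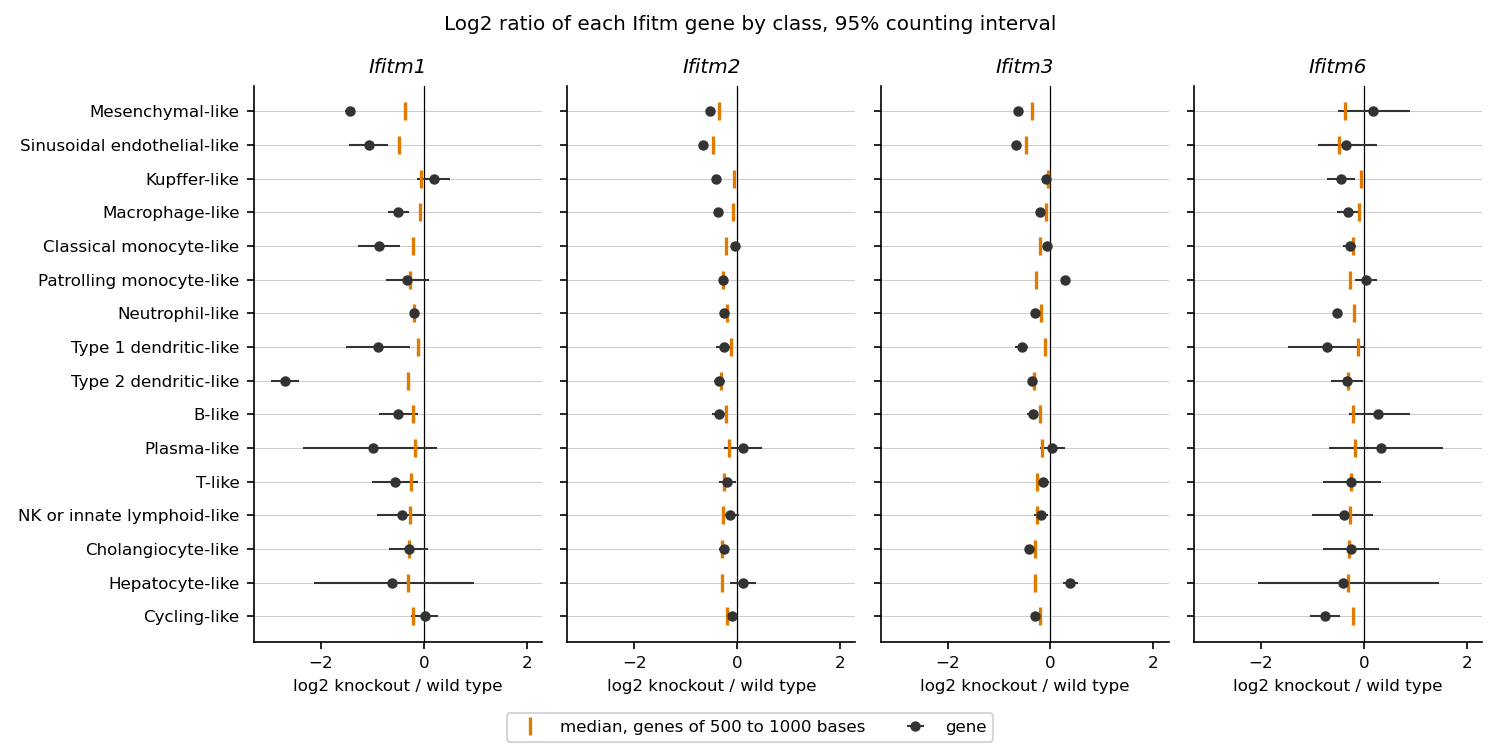
Log2 ratio of knockout over wild type for each Ifitm gene in 16 classes (black points, bars for the 95% counting interval), with the median of genes whose longest transcript has 500 to 1000 bases as an orange mark. Ifitm1 lies far below the orange mark in mesenchymal-like and type 2 dendritic-like cells, whereas Ifitm2 lies below it in 9 and Ifitm3 in 10 of the 16 classes.

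Short transcripts as a whole were lower in the knockout library, and this stands beside every ratio given here. The longest annotated transcripts of the members have 882 (Ifitm1), 655 (Ifitm2), 678 (Ifitm3) and 813 bases (Ifitm6), so all 4 belong to the shortest of 5 groups of like size into which genes were divided by length. The median log2 ratio of mesenchymal-like cells was -0.26 in the shortest group (2455 genes, 4.40% of them at least 2-fold lower) and 0.40 in the longest (0.652%), with the groups between in order of length. The same order was seen in sinusoidal endothelial-like cells, from -0.40 to 0.19, and in neutrophil-like cells, from -0.15 to 0.35. Groups by level showed no such order in mesenchymal-like cells, with medians between 0.12 and 0.18. Genes of 500 to 1000 bases had a median of -0.36 in mesenchymal-like cells (594 genes, 5.05% at least 2-fold lower). Against that median, Ifitm1 stood at -1.08, Ifitm3 at -0.27, Ifitm2 at -0.16 and Ifitm6 at 0.54. In sinusoidal endothelial-like cells, with a median of -0.47 over 663 such genes, Ifitm2 stood at -0.20 and Ifitm3 at -0.19. Relative to genes of like length, Ifitm3 was the lower in 10 of 16 classes, Ifitm2 in 9 and Ifitm6 in 9. The corresponding count of 14 for Ifitm1 rests mostly on classes within 18.0 to 36.4 CPM in the wild-type library, among them cholangiocyte-like cells at -1.3e-05. Of the classes above that range, type 2 dendritic-like cells stood at -2.38, mesenchymal-like cells at -1.08, neutrophil-like cells at -0.0013 and cycling-like cells at 0.22. The length comparison was made after seeing the data, and the part of transcript length in the ratios of the members was not tested.

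The other interferon-stimulated genes were, by their median, higher in the knockout library. Of 22 such genes listed, 21 were measured in mesenchymal-like cells, with a median log2 ratio of 0.29, 3 at least 2-fold higher and 0 at least 2-fold lower in the knockout library, where 5.68% and 2.11% of all genes were. Rsad2, an antiviral enzyme, stood at 33.5 and 88.4 CPM (1.39), Ifit2, which binds viral RNA, at 20.7 and 48.3 (1.21), and Oas2, a sensor of double-stranded RNA outside the naming rule, at 14.2 and 28.9. The lowest were Irf7, a transcription factor that amplifies interferon, at 148 and 88.1 (-0.75), and Ifi27l2a at 1364 and 879 (-0.63). Of the 21, 11 had an interval wholly above 0 and 4 an interval wholly below it. The latter included Ifi27l2a, the highest in level, and Ly6e, next in level and outside the rule, at 1001 and 872 (-0.20, -0.27 to -0.12). In sinusoidal endothelial-like cells the median was 0.94, with 8 of 21 at least 2-fold higher against 3.21% of all genes. Ifit1, also outside the rule, stood there at 68.4 and 271 and Rsad2 at 215 and 632, beside the lower Ifitm2 and Ifitm3. Within each library, as given above, mesenchymal-like cells with Ifitm1 held more UMIs of the list than cells without it. The median of the list was above 0 in 16 of 16 classes, between 0.0015 and 1.04, and above that of all genes in 15. Ifitm1, Ifitm2 and Ifitm3 were below the list median in each class. They were also below the median of all genes, in 15, 15 and 14 of the 16 classes. The listed genes were longer, with a median of 3123 bases and 3 of 21 at or under 1000. Those 3, singled out after their values were seen, stood at -0.63 (Ifi27l2a), -0.35 (Bst2) and -0.09 (Isg15, interval -0.23 to 0.06) in mesenchymal-like cells. In sinusoidal endothelial-like cells they stood at -0.06, -0.50 and 0.54, so short members of the list did not all go 1 way.

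**Figure D4:**
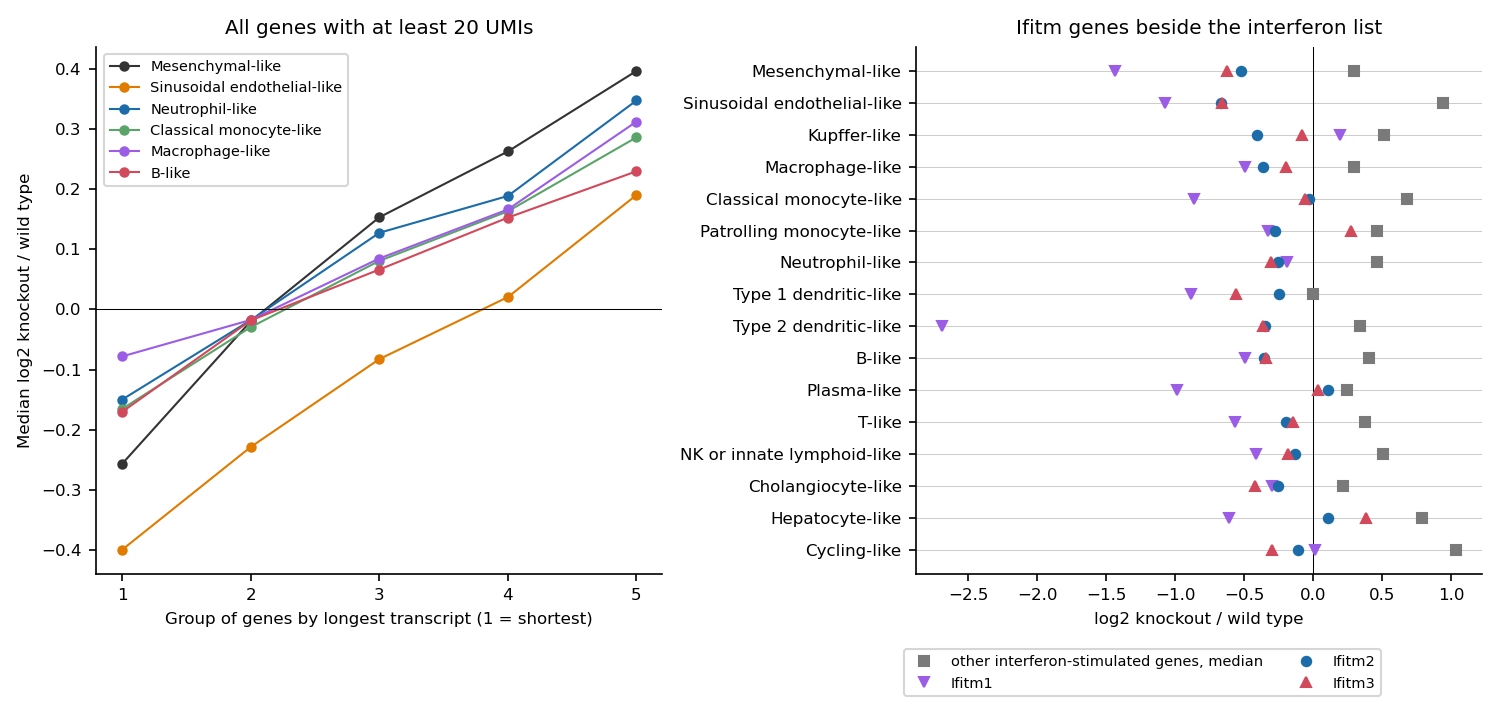
Left, median log2 ratio of all genes with at least 20 UMIs in 5 groups by transcript length for 6 classes. Right, log2 ratios of Ifitm1, Ifitm2 and Ifitm3 in 16 classes beside the median of the other interferon-stimulated genes (grey squares); the medians rise with length in all 6 classes, and the grey squares lie to the right of the 3 Ifitm genes in all 16.

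Genes upstream of the family and around it were counted from the same lists. Mesenchymal-like cells held all 10 listed interferon receptor and signalling genes, with a median log2 ratio of 0.25 and 0 past 2-fold. The kinase Jak2 stood at 143 and 211 CPM (0.56). The receptor chain Ifnar2 stood at 534 and 416 (-0.36, -0.47 to -0.26). The kinase Tyk2 stood at 9.82 and 6.38 (-0.60), but from 29 and 21 UMIs with an interval from -1.51 to 0.24. Of 5 enzymes that modify or turn over IFITM proteins (median 0.14), Setd7, a lysine methyltransferase, stood at 48.1 and 80.2 (0.73) and Nedd4, a ubiquitin ligase, at 490 and 603 (0.30). The palmitoyltransferase Zdhhc20 stood at 0.13 and the ATPase Vcp at -0.08. Of 9 other genes of the CD225 family 1 had at least 20 UMIs, Ifitm10, at 13.9 and 14.0 CPM.

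Protein-coding neighbours of the cluster on chromosome 7 also had medians below 0. In mesenchymal-like cells 7 of 12 had at least 20 UMIs, with a median of -0.42 and 0 of the 7 changed 2-fold. Sirt3, a mitochondrial deacylase, stood at 16.3 and 8.20 CPM (-0.96) and Ric8a, a chaperone of G protein subunits, at 20.7 and 11.8 (-0.79), while Pgghg stood at 0.27 and Ptdss2 at 0.02. In sinusoidal endothelial-like cells 9 were measured, with a median of -0.73 and 3 at least 2-fold lower, where all genes gave 3.28%. Among these, Pkp3, outside the naming rule, had only 11 and 10 UMIs and an interval from -2.68 to 0.09. The median of the list was below 0 in 16 of 16 classes, from -0.73 to -0.05. Genes of 500 to 1000 bases had medians from -0.47 to -0.06 in the same classes, and the part of transcript length in the neighbours was not tested.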

How the data were processed

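Raw UMI counts per gene and cell barcode were deposited by the authors; per the file headers they come from Cell Ranger 7.0.1, whereas the submitters' processing notes name Cell Ranger 3.1.0, Seurat and mm10. Intron use, the strand rule and earlier cell filters are not given in the sources used here. Barcodes under 200 genes or over 20% mitochondrial UMIs were removed, 413 from the wild-type and 149 from the knockout library. Scrublet scores (scanpy 1.11.5) removed the top 0.8% per 1000 cells, 1034 and 1295 cells; its automatic threshold marked 1 and 727. Clustering used 2000 variable genes, 30 components, 15 neighbours and Leiden resolution 1 (leidenalg 0.10.2). The Ifitm genes, Mfap2 and most gene lists were left out of it. The fibroblast, stellate and smooth muscle lists were not left out, and some stellate genes were also class markers. A cluster took the class with the highest share of markers, at least 3 of them raised 2-fold in at least 10% of cells; 7 of 40 clusters stayed unnamed (13.1% and 9.53% of the cells).

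Counts were summed per class and library and scaled to 1000000 (CPM). Log2 ratios add 1 UMI to each sum. Intervals are exact Poisson, exact conditional and Clopper-Pearson intervals at 95%. With 1 library per genotype there is no test. Interval steps were tested on simulated data. The longest GENCODE M21 transcript gave each gene's length (99.3% of genes in mesenchymal-like cells). Named genes were the members, the 3 genes most like each over the classes (at least 50 CPM in a class of each library), and the 2 highest and 2 lowest log2 ratios of each list in mesenchymal-like cells; others are marked, and 1 gene under this rule is not reported here. The members and lists were chosen with earlier results of these data known. The length comparison, the basophil check and the largest mesenchymal-like cluster alone were added after seeing the data. Alternatives covered filters, doublets, gating, resolution, separate clustering, thinning, scaling, the total used and the 5 richest cells.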

Additional observations from a re-analysis of the deposited data

How the results depend on the processing

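No paired analysis was possible because each genotype has 1 library. In mesenchymal-like cells Ifitm1, Ifitm2 and Ifitm3 were lower in the knockout library under each alternative run. Ifitm1 (-1.44) stood at -1.25 with cells thinned before summing, -1.64 as a mean of per-cell values and -1.59 with median-of-ratios scaling. Ifitm2 (-0.52) stood at -0.73 as a per-cell mean, -0.67 with median-of-ratios scaling and -0.60 with a total that leaves out mitochondrial, ribosomal protein and haemoglobin genes. Ifitm3 (-0.62) stood at -0.68 with cells gated singly, -0.77 with median-of-ratios scaling, -0.70 with that total and -0.69 without the 5 richest cells. Relative to genes of 500 to 1000 bases, an alternative chosen after seeing the data, they stood at -1.08, -0.16 and -0.27. Ifitm6 (0.18) ranged from -0.50 as a per-cell mean to 1.25 after thinning, and its 33 and 42 UMIs give it no direction.

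Of 704 alternatives over all results, 515 stayed within the counting interval or spread, 171 moved beyond it and 18 reversed a result. A result counts as reversed if its counting interval excludes 0 and the alternative has the other sign. Other changes of sign are counted among the 515 or the 171. An example is Ifitm1 in Kupffer-like cells, at 0.20 and at -0.44 in its lowest alternative. Ifitm3 in Kupffer-like cells (-0.080) stood at 0.18 with stricter cell filters, 0.092 with cells gated singly, 0.14 at Leiden resolution 2, 0.083 with libraries clustered separately and 0.052 after thinning. Separate clustering also gave -0.0090 for Ifitm3 in patrolling monocyte-like cells, 0.036 for Ifitm1 in neutrophil-like cells, and 0.083 and 0.019 for Ifitm2 and Ifitm3 in cycling-like cells. Thinning gave 0.053 for Ifitm2 in type 2 dendritic-like cells, 0.48 for Ifitm1 in T-like cells and 0.19 for Ifitm2 in cholangiocyte-like cells. Relative to genes of like length, Ifitm3 stood at 0.15 in classical monocyte-like, 0.11 in T-like and 0.087 in NK or innate lymphoid-like cells, and Ifitm2 at 0.060 in T-like, 0.038 in cholangiocyte-like and 0.10 in cycling-like cells. The cause of these changes was not tested. Shares of mesenchymal-like cells with a UMI kept their direction at 2000 UMIs and without thinning for all 4 genes.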
